A study of Caenorhabditis elegans with 44 samples.

Results

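The comparison described here asked what loss of pals-22 did to mRNA levels in Caenorhabditis elegans larvae that already lacked vsra-1. It was chosen by genotype alone. The vsra-1(tm1637); pals-22(pig26) strain (3 libraries, called double mutants) was set against the vsra-1(tm1637) strain (4 libraries, called vsra-1 mutants), which makes 7 of the 44 samples of the series. Both strains carried otIs356, an integrated repetitive transgene in which a rab-3 promoter drives a nuclear red fluorescent protein, TagRFP, in neurons. Libraries of pals-22(pig26) animals (3) and of wild-type animals (4), both also with otIs356, entered the same fit, and small RNA (sRNA) libraries of the same genotypes stand beside the mRNA where stated. All libraries came from whole worms, and the study's methods describe L1 larvae hatched overnight in buffer without food. The alleles are deletions, so each gene was measured by what remains of its transcript, and nothing in the labels says whether replicate libraries came from separate cultures. The p-values therefore measure the spread between these libraries only. In whole worms, fewer cells of a type and less RNA per cell cannot be told apart.

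Worms infected in the intestine by a virus or a microsporidian switch on a set of genes called the intracellular pathogen response (IPR). Its state is set by a pair of antagonists of the pals family, PALS-25, which promotes the response, and PALS-22, which keeps PALS-25 in check in uninfected worms. The IPR includes many members of the pals family itself and subunits of a Cullin-SKR ubiquitin ligase, and worms without PALS-22 also silence repetitive transgenes more strongly. VSRA-1 is an Argonaute, a protein that carries small guide RNAs to complementary transcripts, so the comparison asks which mRNA changes follow loss of pals-22 when this Argonaute cannot act.

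Library totals were 5479218, 15839331 and 20025640 in double mutants, against 14194616, 14811121, 11423700 and 18281687 in vsra-1 mutants. Levels are given below as CPM, counts per 1000000 after scaling by TMM factors. The deposited values were already divided by transcript length, so CPM can be compared between genes. Log2 CPM of the 3 double mutant libraries correlated across genes at 0.951 to 0.953. Library 3 of the vsra-1 mutants stood apart from its own group, at 0.902 to 0.941 with the other vsra-1 libraries and 0.931 to 0.956 with the pals-22 libraries. Library 4 also differed from libraries 1 and 2, at 0.940 and 0.944 with them, against 0.986 between those. It was at 0.976 with wild-type library 4. Deviations from the strain mean correlated across genotypes, at 0.564 between vsra-1 library 4 and double mutant library 3. Between vsra-1 library 1 and wild-type library 4 the value was -0.671. What the libraries shared was not tested. Results that rest on vsra-1 library 3 are given with and without that library.

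Reads from vsra-1 itself did not disappear in either strain. The double mutants had 212, 304 and 213 CPM of vsra-1, against 11.7, 10.97, 11.7 and 9.31 CPM in vsra-1 mutants. Every double mutant library was thus above every vsra-1 mutant library, a ratio of means of 22.3 and a log2 fold change of 4.48 ± 0.19 (SE; edgeR adjusted p = 4.6e-08). The tm1637 allele removes part of the gene, so these reads come from a transcript that cannot be taken as a working Argonaute. In the presence of vsra-1 the same contrast gave 138, 157 and 113 CPM in pals-22 animals, against 12.9, 14.8, 11.6 and 12.1 CPM in wild type (log2 fold change 3.40). For pals-22 the double mutants had 37.4, 41.4 and 34.7 CPM, against 30.1, 30.3, 34.3 and 20.9 CPM in vsra-1 mutants. Those groups did not overlap but the difference was not called (0.39 on the log2 scale, edgeR adjusted p = 0.16), and a whole-gene value does not check the pig26 deletion. The activator pals-25 had 24.5, 28.4 and 24.5 CPM in double mutants, against 14.7, 15.8, 28.9 and 16.24 CPM in vsra-1 mutants, where library 3 was the highest of all 7 (edgeR adjusted p = 0.28, and 0.023 without vsra-1 library 3).

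Across 16724 genes that passed the filter on low counts, 1113 (6.66%) were higher and 712 (4.26%) lower in double mutants at an adjusted p under 0.1, the study's own threshold, together 10.9% of those tested. The higher genes moved further: 427 of them changed by more than 4-fold, compared with 70 of the lower genes. In 2927 genes (17.5%) the libraries of the strains did not overlap, and 1614 of those were called. Across the nuclear chromosomes the share called higher ran between 5.53% on III and 7.98% on V, and 0 of 12 genes of the mitochondrial genome were called higher. The balance between the directions depended on scaling, since library totals without TMM factors gave 2255 higher and 330 lower and shifted the median of all genes by 0.33 on the log2 scale, whereas the median was 0.01 with TMM. Without vsra-1 library 3 the count became 1958 higher and 1903 lower.

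**Figure D1:**
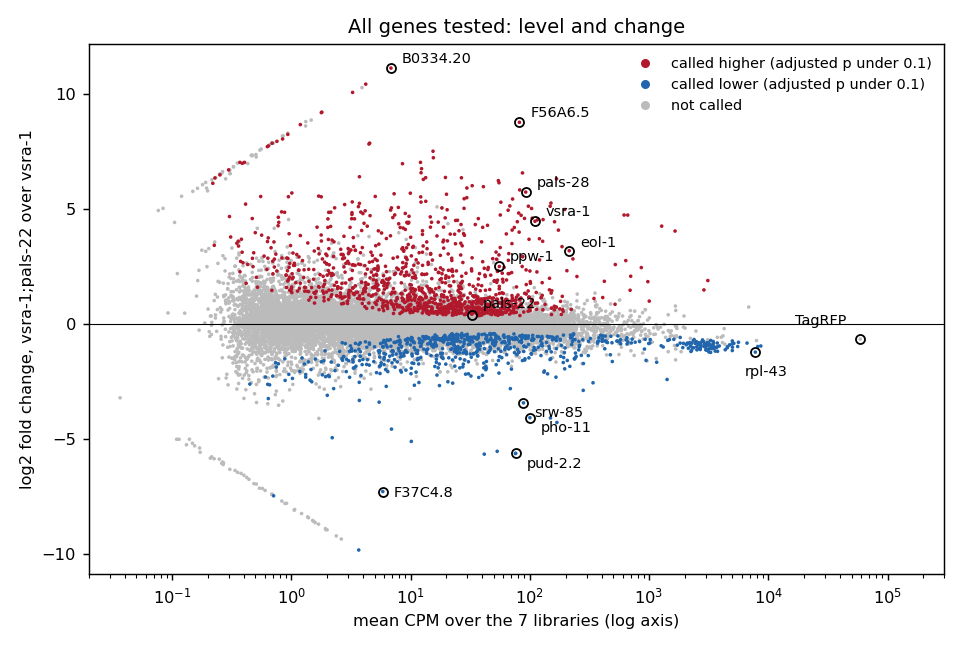
Log2 fold change of double mutants over vsra-1 mutants (vertical) against mean CPM over the 7 libraries (horizontal, log axis) for every gene tested, red where called higher, blue where called lower and grey where not called, with 13 genes circled and named. The 427 genes called over 4-fold higher form the upper cloud, and far fewer points, 70, lie below -2 among those called lower.

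The largest increases were in genes that were silent or nearly silent in vsra-1 mutants. B0334.20 on chromosome II had 16.05, 22.5 and 9.37 CPM in double mutants and was at 0 in all 4 vsra-1 libraries, which, set against 3 counts in a library, made it at least 3.84-fold higher. Y105C5A.10 on chromosome IV had 10.2, 8.91 and 10.3 CPM in double mutants and was at 0 in vsra-1 mutants, at least 2.36-fold higher. The bounds are low because both transcripts are short and 3 counts weigh much per length. WBGene00017415, annotated as a pseudogene on chromosome V, had 4.17, 12.2 and 6.501 CPM in double mutants and was at 0 in vsra-1 mutants, at least 25.3-fold higher. F56A6.5 on chromosome I had 173, 290 and 108 CPM in double mutants, against 0.230, 0.536, 0.773 and 0.234 CPM in vsra-1 mutants, the largest fitted change among the genes named here with reads in both strains (log2 fold change 8.79 ± 0.47, edgeR adjusted p = 3.8e-07). No role is given here for these genes.

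Among the other genes of this group, some belong to families with a known function. Y71H2AR.2 on chromosome III had 25.96, 40.7 and 40.5 CPM in double mutants, against 0.217, 0.161, 0.162 and 0.158 CPM in vsra-1 mutants (log2 fold change 7.53 ± 0.30), and shares 16.8% of its 31-base words with another transcript. The F-box genes fbxa-116 and fbxa-171, whose family provides substrate adaptors of ubiquitin ligases, rose by 7.24 and 7.04 on the log2 scale. The immunoglobulin-domain gene zig-13 rose by 6.99. The non-coding W03G1.8 and the protein-coding F15H10.12 and ZC196.4 had log2 fold changes of 7.84, 6.77 and 6.59. All 12 genes that the naming rule took as the largest increases were called in every fit that left out a library, with adjusted p of at most 0.0042, and all 12 were also called higher in pals-22 animals against wild type.

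Promoter sequence is shown because many of these genes were near 0 in vsra-1 mutants and high in double mutants. The 250 bases before the annotated start were taken from the WBcel235 (ce11) genome for 15827 protein-coding genes tested, 381 of them over 4-fold higher in double mutants. Words of 7 bases on either strand were counted, and 1002 of them stood in more than 20 of the 381 promoters. Of these, CTTGCTA had the highest ratio of its share there to its share in all 15827, 7.145. TGAGGAA, with a ratio of 4.564, was the most frequent of the words with a ratio over 4. How many words passed that ratio is not given here. CTTGCTA stood in 43 of the 381 (11.3%), against 250 of all 15827 promoters (1.58%). TGAGGAA stood in 88 (23.1%), against 801 of all (5.06%), and the share with either word was 31.8%, against 6.495% in all. The words were picked from these same promoters and so carry no test. Among genes called lower the shares were 1.46% and 3.80%, close to those of all promoters. The GATA-type word TGATAA, which intestinal transcription factors of the GATA family can bind, stood in 43.04% of the 381 and 36.99% of the lower genes, against 26.8% of all.

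The promoters of 4 higher genes are printed 5′ to 3′ on the strand of each gene, ending at the base before its start, with CTTGCTA or TGAGGAA, or their reverse complements TAGCAAG and TTCCTCA, in capitals. They were chosen to show each word and, in Y71H2AR.2, both. Coordinates are III:2840928-2841177 (minus strand) for Y71H2AR.2, IV:15635512-15635761 (plus) for Y105C5A.10, III:4384537-4384786 (plus) for pals-28, and II:1028722-1028971 (plus) for math-34.
Y71H2AR.2: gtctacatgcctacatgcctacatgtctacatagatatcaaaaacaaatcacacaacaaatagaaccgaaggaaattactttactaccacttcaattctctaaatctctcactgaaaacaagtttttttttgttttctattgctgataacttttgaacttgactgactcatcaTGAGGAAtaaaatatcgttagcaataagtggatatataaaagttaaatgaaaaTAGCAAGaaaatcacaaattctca
Y105C5A.10: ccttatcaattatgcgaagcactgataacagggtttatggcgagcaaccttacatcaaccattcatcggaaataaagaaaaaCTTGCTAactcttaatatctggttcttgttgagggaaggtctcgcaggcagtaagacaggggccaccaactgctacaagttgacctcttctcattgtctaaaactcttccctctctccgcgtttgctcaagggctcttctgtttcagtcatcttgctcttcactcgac
pals-28: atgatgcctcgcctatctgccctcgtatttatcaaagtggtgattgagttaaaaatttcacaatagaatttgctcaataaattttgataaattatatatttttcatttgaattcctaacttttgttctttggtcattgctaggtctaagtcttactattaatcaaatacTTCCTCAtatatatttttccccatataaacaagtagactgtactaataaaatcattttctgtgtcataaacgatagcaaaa
math-34: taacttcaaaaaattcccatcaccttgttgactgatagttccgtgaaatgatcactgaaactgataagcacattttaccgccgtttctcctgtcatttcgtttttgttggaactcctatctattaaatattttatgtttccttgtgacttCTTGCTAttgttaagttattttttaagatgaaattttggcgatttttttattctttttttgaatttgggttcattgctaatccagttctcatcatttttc
The nearer word lies 24 bases before the start of Y71H2AR.2. In pals-28 it lies 81 bases before the start, in math-34 100 and in Y105C5A.10 168. A match is a description of letters and not of a bound site.

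The pals family was raised in most of its members. Of 37 pals genes tested other than pals-22, 28 were higher in double mutants and 0 lower (75.7%, against 6.66% of all genes), with a median log2 fold change of 4.01, and the libraries did not overlap in 28, against 17.5% of all genes. In summed CPM the family reached 2766 to 5639 in double mutants, against 181 to 653 in vsra-1 mutants. pals-11, at the top of the family, had 71.1, 220 and 83.1 CPM in double mutants, against 1.25, 0.521, 4.02 and 0.936 CPM in vsra-1 mutants (log2 fold change 6.25 ± 0.67, edgeR adjusted p = 1.0e-04). pals-37 had 70.9, 340 and 151 CPM in double mutants, against 1.44, 1.85, 6.53 and 3.27 CPM in vsra-1 mutants (log2 fold change 5.84). These 2 genes share 26.9% and 22.5% of their words with other transcripts. pals-28, whose promoter is printed above, had 147, 305 and 178 CPM in double mutants, against 0.916, 2.70, 9.26 and 2.90 CPM in vsra-1 mutants (log2 fold change 5.75), and shares no word. pals-30 had 36.5, 63.6 and 36.1 CPM in double mutants, against 0.288, 0.271, 2.59 and 0.660 CPM in vsra-1 mutants. In each of these 4 genes library 2 was the highest double mutant library and library 3 the highest vsra-1 library.

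That pattern ran through the family. Double mutant library 2 was the highest of the 3 in 27 of the 28 called pals genes, and vsra-1 library 3 the highest of the 4 in 26. The 28 log2 fold changes ran between 0.86 and 6.25, and the 9 pals genes without a call between -0.91 and 0.77. All 28 were also called higher in pals-22 animals against wild type. Leaving out each library in turn left 24 to 31 called.

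**Figure D2:**
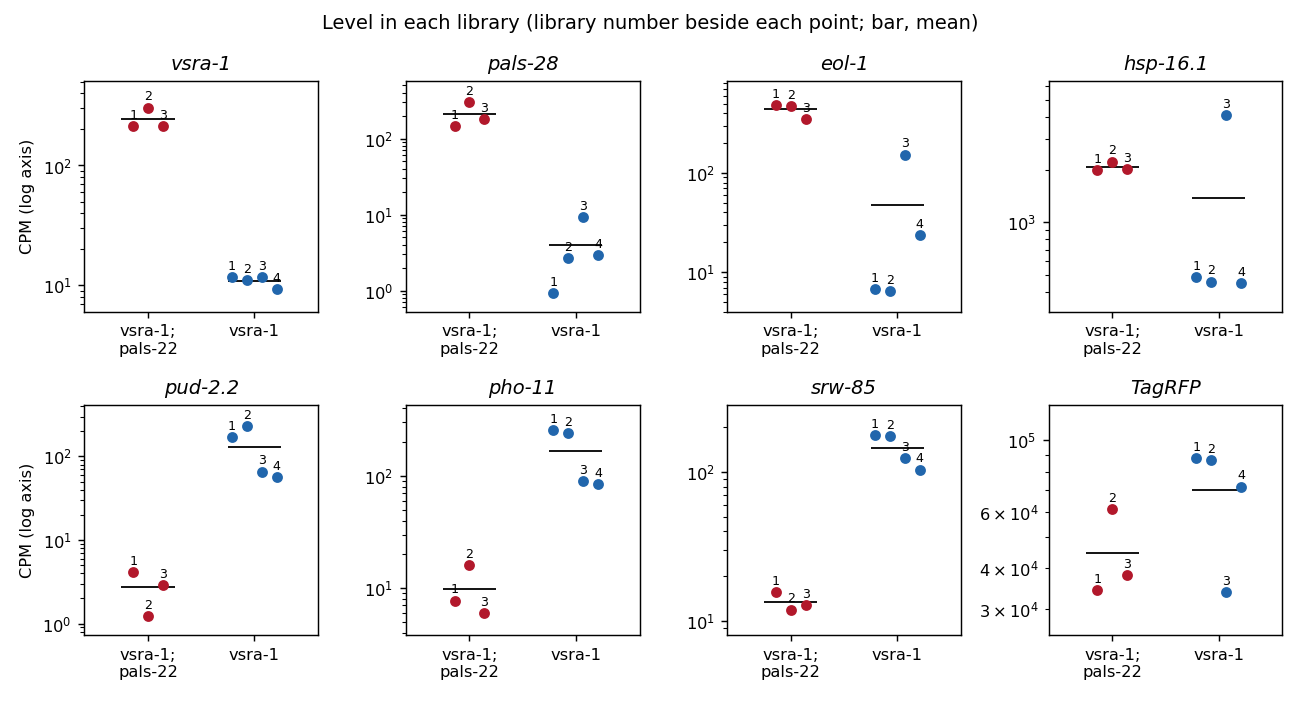
CPM of 8 genes in each library (vertical, log axis), with double mutants in red on the left and vsra-1 mutants in blue on the right of each panel, library numbers beside the points and bars at the means. Library 3 of the vsra-1 mutants stands off from the other 3, toward or past the double mutants, for pals-28, eol-1, hsp-16.1 and TagRFP, but not for vsra-1 itself.

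Outside the pals family, 6 of 11 further IPR genes were higher (54.5%, against 6.66% of all genes) and 0 lower, with a median log2 fold change of 1.795. The called genes include skr-3, skr-4 and skr-5, which are counted again among the ligase subunits below, so these lists are not independent. All 11 were called without vsra-1 library 3, in which the other 5 were high. eol-1, which encodes a decapping exonuclease of the DXO type and affects olfactory learning, had 485, 475 and 347 CPM in double mutants, against 6.80, 6.45, 153 and 23.7 CPM in vsra-1 mutants. Its log2 fold change was 3.20 ± 0.93 (edgeR adjusted p = 0.065), and the call was lost (adjusted p 0.12 to 0.13) in each fit that left out any single library other than vsra-1 library 3. Of the F26F2 cluster on chromosome V, F26F2.5 rose to 108, 127 and 74.97 CPM in double mutants, against 5.54, 4.84, 36.9 and 11.2 CPM in vsra-1 mutants (log2 fold change 2.83). Its neighbours F26F2.1, F26F2.3 and F26F2.4 had log2 fold changes of 1.98, 1.54 and 1.73 without a call. They passed once vsra-1 library 3 was left out (edgeR adjusted p 5.9e-06 to 0.0017). With that library kept, the list gave 9 calls with limma-trend and 7 with a block for replicate number. All genes gave 1189 and 1800 higher in those fits. The symbol F26F2.2 is held by a pair of identical entries with a log2 fold change of 0.71. These were not called with all libraries and passed without vsra-1 library 3 (edgeR adjusted p = 0.057).

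The subunits of the Cullin-SKR ubiquitin ligase, which marks proteins for degradation during the response, rose almost as a set: 7 of 8 were higher (87.5%, against 6.66% of all genes), with a median log2 fold change of 2.49, and in each of the 8 the strains did not overlap, as in 17.5% of all genes. The cullin gene cul-6 had 35.7, 32.8 and 30.6 CPM in double mutants, against 5.45, 6.78, 19.4 and 6.62 CPM in vsra-1 mutants (log2 fold change 1.795 ± 0.39, edgeR adjusted p = 0.019). Among the Skp1-related genes, skr-4 had 159, 166 and 118.6 CPM in double mutants, against 8.89, 5.35, 28.97 and 9.05 CPM in vsra-1 mutants, while skr-3 had 674, 609 and 507 CPM in double mutants, against 209, 229, 438 and 195 CPM in vsra-1 mutants. The fold thus differed widely within this group, 11.3 for skr-4 and 2.23 for skr-3 as ratios of means, with skr-5 and skr-6 at 4.74 and 26.2. The RING-domain gene rcs-1 gave the steadiest values, 181, 176 and 132 CPM in double mutants, against 29.9, 33.9, 29.1 and 21.7 CPM in vsra-1 mutants (log2 fold change 2.51 ± 0.17, adjusted p = 2.5e-06). Of the F-box adaptors, fbxa-158 rose by 2.47 on the log2 scale, and fbxa-75, at 98.8, 128 and 87.7 CPM in double mutants, against 1.42, 2.75, 47.7 and 8.66 CPM in vsra-1 mutants, was the member without a call (adjusted p = 0.11, and 0.0047 without vsra-1 library 3).

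Of 8 regulators of the response, 3 were higher (37.5%, against 6.66% of all genes) and 0 lower. Among the 3, pals-20 is also counted in the pals family above, and drh-1 again in the RNAi list below. Without vsra-1 library 3 the counts were 5 and 1, where all genes gave 1958 and 1903. drh-1, the RIG-I-like helicase that senses viral RNA, had 36.6, 52.2 and 40.9 CPM in double mutants, against 5.19, 6.63, 8.12 and 5.50 CPM in vsra-1 mutants (log2 fold change 2.77 ± 0.17, edgeR adjusted p = 1.6e-06). zip-1, a bZIP transcription factor that acts downstream, had 78.4, 112 and 81.3 CPM in double mutants, against 35.7, 34.8, 22.9 and 22.8 CPM in vsra-1 mutants (log2 fold change 1.64). Both were separated from the vsra-1 libraries, and here library 3 did not stand out. pals-20 had 2.32, 1.87 and 2.73 CPM in double mutants, against 0, 0.0596, 0.923 and 0.213 CPM in vsra-1 mutants (log2 fold change 2.93, edgeR adjusted p = 0.078, and 0.12 to 0.20 in fits without any single library other than vsra-1 library 3). pals-17, known as a negative regulator, had 26.9, 23.7 and 20.1 CPM in double mutants, against 10.7, 12.7, 26.1 and 9.70 CPM in vsra-1 mutants, with no call (adjusted p = 0.19, and 0.0025 without vsra-1 library 3).

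Genes of the antiviral RNAi pathway and its amplification step were higher as well: 7 of 10 passed (70%, against 6.66% of all genes), 0 were lower and the median log2 fold change was 0.74. Besides drh-1, the largest was ekl-1, a Tudor-domain partner of RNA-dependent RNA polymerase, with 76.6, 90.5 and 80.6 CPM in double mutants, against 13.2, 13.9, 19.96 and 16.36 CPM in vsra-1 mutants (log2 fold change 2.38 ± 0.16, edgeR adjusted p = 2.5e-06). rde-1, the Argonaute that first binds exogenous siRNAs, had 42.5, 69.5 and 52.3 CPM in double mutants, against 19.2, 23.3, 12.9 and 14.6 CPM in vsra-1 mutants (log2 fold change 1.65). The Dicer-related helicase gene drh-3 rose by 1.02 and the DEAD-box helicase gene rde-12 by 0.79. dcr-1, which encodes Dicer, and rsd-2, needed for spreading of RNAi, had log2 fold changes of 0.64 and 0.61. Those last calls were weak, since dcr-1 lost its call without any of double mutant libraries 1, 2 and 3 or vsra-1 libraries 1 and 2 (adjusted p 0.10 to 0.35), and rsd-2 without double mutant library 3 or vsra-1 library 1 (0.10 to 0.13).

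Of 16 Argonaute genes tested, 6 were higher (37.5%, against 6.66% of all genes) and 0 lower, with a median log2 fold change of 0.84. Besides vsra-1 and rde-1 these were ppw-1, sago-2, csr-1 and sago-1. ppw-1, which works with amplified siRNAs, had 112, 96.8 and 106 CPM in double mutants, against 13.9, 15.03, 27.5 and 17.1 CPM in vsra-1 mutants (log2 fold change 2.51 ± 0.25, edgeR adjusted p = 5.5e-05). sago-2, a somatic secondary Argonaute, had 40.2, 25.7 and 33.7 CPM in double mutants, against 3.38, 4.58, 10.1 and 10.8 CPM in vsra-1 mutants (log2 fold change 2.19). ppw-1 and sago-2 share 73.3% and 80.4% of their words with other transcripts, chiefly near-identical Argonautes, so how reads divide between them is uncertain. csr-1 and sago-1 rose by 1.44 and 0.82. In contrast, of 8 genes of the 26G pathway, which makes primary endogenous siRNAs, 0 were called in edgeR, 0 reached an unadjusted p under 0.05 and 0 were called in DESeq2, with log2 fold changes between -0.34 and 0.14.

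Heat shock genes gave a result that turned on vsra-1 library 3. hsp-16.1, a small heat shock protein gene that shares 92.4% of its words with another copy, had 1980, 2224 and 2019 CPM in double mutants, against 485, 459, 4098 and 449 CPM in vsra-1 mutants. Library 3 alone exceeded every double mutant, and hsp-16.2 (280 CPM there, 36.04 to 43.9 CPM in the other vsra-1 libraries) and the HSP70 gene F44E5.4 (1558 CPM there) behaved likewise. With all libraries 1 of 10 such genes was called higher (10%, against 6.66% of all genes). This was hsp-70 (log2 fold change 1.82, edgeR adjusted p = 0.039, lost without double mutant library 3, at 0.17, or vsra-1 library 1, at 0.11). Without vsra-1 library 3, 8 of 10 were higher, where 1958 of all genes were. What set that library apart was not tested. The regulatory subunits of the proteasome rpn-3, rpn-2 and rpn-1 rose by 0.84, 0.68 and 0.59, and with pas-6 and rpn-7 made 5 of 33 subunits higher and 0 lower (15.2%, against 6.66% of all genes, and 27 of 33 with library totals alone, under which 2255 of all genes were higher). With all libraries, in none of the lists from pals to proteasome did DESeq2 call a member lower or edgeR give one an unadjusted p under 0.05 in that direction. rpn-3 had 96.9, 85.04 and 86.1 CPM in double mutants, against 50.1, 49.1, 49.7 and 50.7 CPM in vsra-1 mutants. The calls of pas-6 and rpn-7 were each lost in at least 5 of the 7 fits that left out a library (adjusted p up to 0.21).

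Families of adaptor-like genes beyond the ligase list had more genes higher than lower. F-box A genes were higher in 44 of 145 and lower in 1, fbxa-62, and MATH and BATH genes, which encode proteins with MATH domains that can serve as substrate adaptors, were higher in 19 of 64 and lower in 1, bath-26. As shares these were 30.3% and 29.7% higher, against 6.66% of all genes, and 0.69% and 1.56% lower, against 4.26%. fbxa-174 had 30.4, 38.9 and 22.8 CPM in double mutants, against 0.299, 0.563, 0.469 and 0.202 CPM in vsra-1 mutants (log2 fold change 6.38). math-14 had 19.4, 28.3 and 15.8 CPM in double mutants, against 0.321, 0.828, 2.34 and 0.512 CPM in vsra-1 mutants. math-34, shown above with its promoter, had 12.2, 19.4 and 11.8 CPM in double mutants, against 0.432, 1.43, 1.31 and 0.845 CPM in vsra-1 mutants (log2 fold change 3.85 ± 0.39). None of these 3 genes overlapped between strains. The F-box A count was 27 higher and 0 lower without double mutant library 1, 26 and 0 without double mutant library 2, 58 and 9 without vsra-1 library 3, and 54 and 20 without both vsra-1 libraries 3 and 4. All genes gave 1958 higher and 1903 lower without vsra-1 library 3, and 2641 and 2738 without both. The MATH and BATH count was 14 to 27 with a library left out. F-box B genes, a sister family, gave 1 of 93 higher, fbxb-14, a share below that of all genes. The calls of fbxa-62, bath-26 and fbxb-14 did not survive every omission of a library (adjusted p up to 0.14, 0.16 and 0.20). C-type lectins, many of them secreted in the gut, split 11 higher and 7 lower of 107 tested (10.3% and 6.54%, against 6.66% and 4.26% of all genes), from clec-108 (0.348, 2.95 and 1.52 CPM in double mutants and 0 in vsra-1 mutants, at least 3.16-fold higher) and clec-60 (log2 fold change 3.29) to clec-1, with 117, 81.9 and 69.8 CPM in double mutants, against 746, 837, 220 and 300 CPM in vsra-1 mutants (log2 fold change -2.56). Their calls numbered 11 without double mutant library 1 or 3 or vsra-1 library 2, and 27 (14 higher, 13 lower) without vsra-1 library 3.

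Among the lists, the deepest decreases were in the pud genes, first described as proteins raised in daf-2 insulin receptor mutants. All 6 entries tested were lower, with a median log2 fold change of -5.59, against 4.26% of all genes, and in summed CPM the list fell to 6.44 to 12.5 in double mutants, against 186 to 777 in vsra-1 mutants. pud-2.2 had 4.11, 1.22 and 2.91 CPM in double mutants, against 172, 228, 65.9 and 56.6 CPM in vsra-1 mutants (log2 fold change -5.63 ± 0.75, edgeR adjusted p = 5.9e-04). Its symbol stands for a pair of identical entries, and pud-1.1 and pud-1.2 share 100% and 94.0% of their words, so the 6 are not independent. pud-3 and pud-4 share none and fell by 4.95 and 5.11. pud-1.1 (log2 fold change -5.66) and pud-1.2 (-5.54) lost their calls without double mutant library 3 (adjusted p = 0.14 and 0.12), and pud-1.1 also without double mutant library 2 (0.10).

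Beside them, pho-11, a predicted acid phosphatase gene, had 7.71, 16.03 and 5.93 CPM in double mutants, against 255, 241, 90.4 and 84.5 CPM in vsra-1 mutants (log2 fold change -4.08 ± 0.58, edgeR adjusted p = 0.001). clec-186 fell to 1.58, 0.754 and 0.498 CPM in double mutants, against 11.8, 9.98, 4.47 and 9.09 CPM in vsra-1 mutants. In both genes the groups were far apart, and both also fell in pals-22 animals against wild type (log2 fold changes -4.66 and -3.68). C23G10.11 had 14.2, 13.3 and 16.16 CPM in double mutants, against 231, 252, 588 and 66.1 CPM in vsra-1 mutants, and T22F3.11 had 10.5, 14.2 and 19.1 CPM in double mutants, against 197, 229, 480 and 93.7 CPM in vsra-1 mutants. Both of these varied several-fold among the vsra-1 libraries, were not called in pals-22 animals against wild type, and lost their calls without any of the double mutant libraries (adjusted p 0.12 to 0.15). F37C4.8 fell to 0, 0 and 0.137 CPM in double mutants, against 10.9, 20.05, 9.66 and 0.148 CPM in vsra-1 mutants (log2 fold change -7.29, lost without double mutant library 2 or 3 at 0.11), and WBGene00017205 had a log2 fold change of -4.57 (lost in 5 of the 7 fits without a library, adjusted p up to 0.22).

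Ribosomal protein genes were lower as a group: 68 of 75 tested passed (90.7%, against 4.26% of all genes) and 0 were higher, with log2 fold changes between -1.22 and 0.04 and a median of -0.91. Together they made up 16.17% to 21.5% of double mutant libraries, against 24.0% to 29.8% of vsra-1 libraries. rpl-43 had 5784, 4155 and 3321 CPM in double mutants, against 12194, 11000, 11411 and 6586 CPM in vsra-1 mutants (log2 fold change -1.22 ± 0.33, edgeR adjusted p = 0.051). rps-12 and rps-23 fell (log2 fold changes -1.21 and -1.1495), and the groups did not overlap in 68 of the 75, against 17.5% of all genes. The change was modest for each gene and the count moved with single libraries: 4 without double mutant library 3, 30 without double mutant library 2, and 24 without either of vsra-1 libraries 1 and 2. With library totals alone 63 were lower (median -0.57). Of the 12 genes of the mitochondrial genome, picked after their values were seen, 8 were lower (66.7%, against 4.26% of all genes), and the share of the library held by all 12 was 0.81% to 1.01% in double mutants, against 1.08% to 1.12% in vsra-1 mutants.

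In other metabolic and signalling families few genes were called with all libraries, and many more without vsra-1 library 3. Cytochrome P450 genes gave 2 higher (cyp-36A1, cyp-33C8) and 5 lower (cyp-33C2, cyp-37B1, cyp-13A2, cyp-33C9, cyp-44A1) of 65, UDP-glucuronosyltransferase genes 2 higher (ugt-19, ugt-7) and 3 lower (ugt-49, ugt-61, ugt-60) of 56, and nuclear hormone receptor genes 6 higher and 9 lower of 211. As shares these were 3.08%, 3.57% and 2.84% higher, against 6.66% of all genes, and 7.69%, 5.36% and 4.27% lower, against 4.26%. Without vsra-1 library 3 they became 2 higher and 12 lower P450 genes, 6 higher and 5 lower UDP-glucuronosyltransferase genes and 13 higher and 37 lower receptor genes, where all genes gave 1958 and 1903. Fits without any other library left 1 to 10 P450, 2 to 5 UDP-glucuronosyltransferase and 7 to 18 receptor genes called, and DESeq2 called 31 receptor and 13 neuropeptide genes. nhr-118 had 0.588, 0.560 and 0.938 CPM in double mutants and was at 0 in vsra-1 mutants, at least 2.98-fold higher. Of 61 neuropeptide genes, the insulin-like ins-7 was higher and ins-35, flp-20 and flp-14 were lower (2 higher and 16 lower without vsra-1 library 3, and 0 to 8 called without any other), flp-20 with 111, 157 and 78.6 CPM in double mutants, against 415, 509, 189 and 197 CPM in vsra-1 mutants. Of 67 histone entries, his-59 and a triplet of identical entries named his-14 were higher. The shares higher were 1.64% of neuropeptide genes and 5.97% of histone entries, against 6.66% of all genes. The shares lower were 4.92% and 0%, against 4.26%. Of the genes named in this paragraph, only cyp-33C8, ugt-19 and nhr-118 kept the call whichever library was left out, the others reaching adjusted p of 0.10 to 0.56. Of 20 antimicrobial peptide, 6 vitellogenin, 5 major sperm protein and 5 furrow collagen genes 0 were called in edgeR. At an unadjusted p under 0.05, 1 antimicrobial peptide and 1 major sperm protein gene were higher, and DESeq2 called 1 antimicrobial peptide gene. The furrow collagens summed to 201, 76.9 and 295 CPM in double mutants, against 52.6, 76.2, 662.5 and 328 CPM in vsra-1 mutants. With that spread, the lack of calls does not show them unchanged.

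Cuticle collagens were higher in 26 of 128 (20.3%, against 6.66% of all genes) and lower in 1, col-153 (0.78%, against 4.26%), but rested on a single library. col-81 had 25.1, 0.0569 and 0.0866 CPM in double mutants, against 0.277, 0, 0.388 and 0.187 CPM in vsra-1 mutants, and col-133 had 46.2, 0.129 and 0.197 CPM in double mutants, against 0.705, 0.294, 0.615 and 0.264 CPM in vsra-1 mutants. Double mutant library 1, the shallowest, was highest of the 3 in 23 of the 26, by more than 10 times in 7, and 5 of the 26 stayed called without it. Without that library col-81 and col-133 turned to log2 fold changes of -1.48 and -1.45, and the list gave 5 higher and 4 lower. col-38 and col-88 had the same form, with 25.02 and 28.1 CPM in that library and at most 1.55 CPM elsewhere, and fell out as well (adjusted p = 0.96 and 0.29). The list was also reduced without vsra-1 library 1 (9 higher) or 2 (5 higher) and enlarged without vsra-1 library 3 (37 higher, 11 lower). Double mutant library 1 was also highest in summed major sperm protein genes, at 56.5 CPM, against 3.62 and 3.11 in libraries 2 and 3 and 1.78 to 5.62 in vsra-1 mutants. Its vitellogenin genes summed to 145 CPM, against 11.03 and 3.08 in libraries 2 and 3 and 5.37 to 64.4 in vsra-1 mutants. What set double mutant library 1 apart was not tested.

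Marker genes of the tissues of a larva were compared between the strains. Of 10 neuron, 10 germline and 9 hypodermis markers 0 were called in edgeR, 1 neuron and 1 hypodermis marker were higher at an unadjusted p under 0.05, and DESeq2 called 1 neuron marker, with summed neuron markers at 805 to 1297 CPM in double mutants, against 764 to 1640 CPM in vsra-1 mutants. Hypodermis markers varied widely within the strains, with sums of 1000 to 2301 CPM in double mutants, against 851 to 4018 CPM in vsra-1 mutants. Germline markers were low in both strains, with sums of 21.95 to 57.3 CPM in double mutants, against 23.8 to 67.0 CPM in vsra-1 mutants. Of 9 intestine markers 1 was lower (11.1%, against 4.26% of all genes), the gut esterase gene ges-1 (8.68, 14.3 and 7.60 CPM in double mutants, against 34.8, 29.2, 15.6 and 19.3 CPM in vsra-1 mutants). Of 10 pharynx markers 3 were higher (30%, against 6.66% of all genes), the myosin heavy chain genes myo-5, myo-2 and myo-1, with log2 fold changes of 2.09, 1.86 and 1.62, and the summed list reached 491 to 523 CPM in double mutants, against 193 to 413 CPM in vsra-1 mutants. Of 10 body wall muscle markers the myosin gene myo-3 and the giant sarcomere protein gene unc-89 were higher (0.78 and 1.12), while the other body wall myosin gene, unc-54, had 861, 1683 and 1208 CPM in double mutants, against 2532, 2133, 799 and 1608 CPM in vsra-1 mutants, without a call. The body wall list as a whole had 20% of its genes higher, against 6.66% of all genes. Its median log2 fold change was -0.23, and it summed to 3573 to 5929 CPM in double mutants, against 3532 to 7934 CPM in vsra-1 mutants. DESeq2 called 2 of its 10 genes higher and 2 lower, and edgeR gave 1 higher and 3 lower without vsra-1 library 3, and 0 and 4 without both vsra-1 libraries 3 and 4. Apart from myo-5, each of the calls named with all libraries was lost without double mutant library 3 (adjusted p 0.12 to 0.35), and other libraries ended them too. Without vsra-1 library 3, 3 intestine, 2 hypodermis and 1 neuron marker were called, each of them lower. Whether tissue makeup had a part in the results above was not tested.

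**Figure D3:**
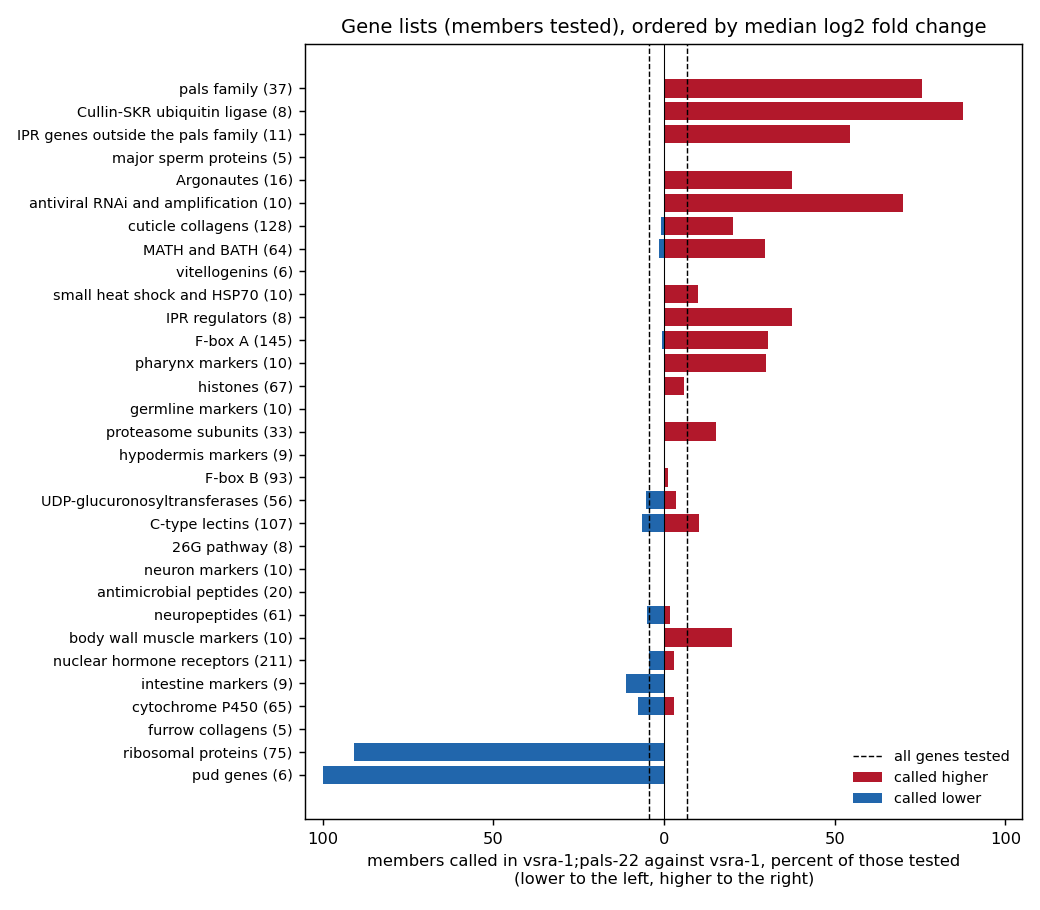
Share of the tested members of each gene list called higher (red, to the right) or lower (blue, to the left) in double mutants against vsra-1 mutants, in percent, with lists ordered by their median log2 fold change and dashed lines at the shares of all genes tested. The pud and ribosomal protein lists stand at 100% and 90.7% lower, the ligase and pals lists at 87.5% and 75.7% higher, against 4.26% and 6.66% of all genes.

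Muscle genes are long, and length was itself related to the change. Over 10855 genes with a mean of at least 5 CPM, the log2 fold change of double mutants over vsra-1 mutants correlated with mean transcript length across genes (Spearman rho 0.28), whereas that of pals-22 animals over wild type did not follow it (-0.03). The median was -0.22 in the shortest decile of genes (71 to 507 bases) and 0.36 in the longest (2847 to 39690 bases). In the longest decile 192 genes were higher and 4 lower of 1086, against 75 and 155 of 1093 in the shortest. When the trend was removed, a setting added after seeing the data, 961 genes were higher and 559 lower, and vsra-1 kept a log2 fold change of 4.22. The calls of dcr-1, myo-1, myo-3, unc-89, rpn-1, flp-14 and ins-35 were then lost, and 67 of 75 ribosomal protein genes stayed lower (median -0.74). The source of the trend was not tested.

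**Figure D4:**
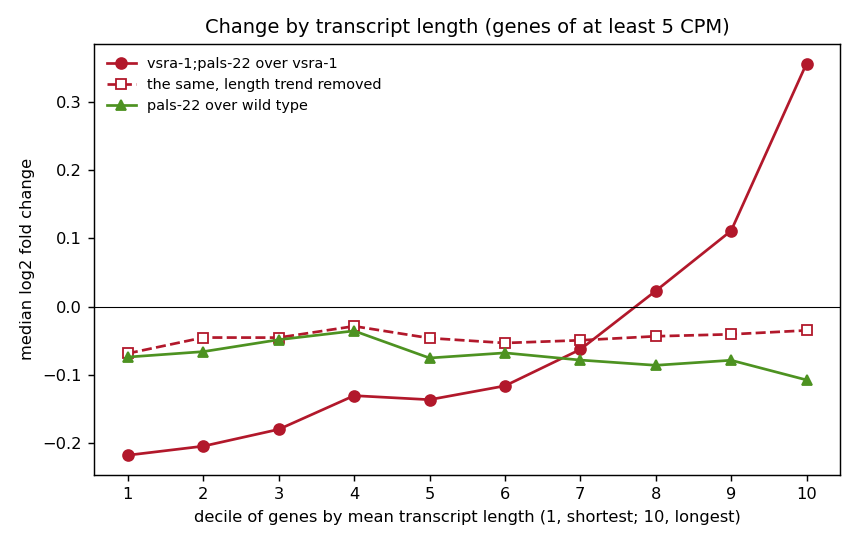
Median log2 fold change (vertical) of genes with a mean of at least 5 CPM in deciles by mean transcript length (horizontal, 1 the shortest), for double mutants over vsra-1 mutants as fitted and with the length trend removed, and for pals-22 over wild type. Only the first runs upward, between -0.22 and 0.36.

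Loss of pals-22 in the presence of vsra-1 was measured in libraries that share none with the comparison above, 3 of pals-22 animals against 4 of wild type. There 967 genes (5.78%) were higher and 853 (5.10%) lower. Of the genes higher in double mutants 555 were also higher in pals-22 animals (49.9% of the 1113, 57.4% of the 967), and 271 were lower in both (38.1% of the 712, 31.8% of the 853). Across the 16724 genes, which are not independent replicates, the log2 fold changes correlated at 0.54 (Pearson) and 0.56 (Spearman). The pals family had a median of 4.01 without vsra-1 and 5.27 with it, the further IPR genes 1.795 and 2.97. The medians without vsra-1 include vsra-1 library 3, where many of these genes were raised. With that library left out, pals-11, pals-37, pals-28 and pals-30 had log2 fold changes of 7.07, 6.38, 6.55 and 6.73. In pals-22 animals against wild type they had 7.70, 5.27, 6.82 and 6.29. As to the difference of the effects itself, 1 gene (0.00598%) passed in edgeR, 1070 (6.40%) at an unadjusted p under 0.05, and 56 in DESeq2. A gene without a call is not thereby shown to respond alike.

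The gene that passed was srw-85, which encodes a predicted serpentine chemoreceptor and lies at V:19429387-19431136 (ce11). It had 15.7, 11.9 and 12.8 CPM in double mutants, against 177, 175, 123 and 103.9 CPM in vsra-1 mutants, but 138, 131 and 95.3 CPM in pals-22 animals, against 5.86, 5.45, 9.26 and 6.91 CPM in wild type. Its level was thus high in each of the strains with a single mutation and low in the strains with both or neither. The log2 fold changes were -3.43 ± 0.27 without vsra-1 and 4.15 with it, a difference of -7.58 ± 0.38 (edgeR adjusted p = 7.1e-07), and the call held in every alternative fit run. Its sRNA moved with the mRNA without vsra-1, at a mean in RPM (sRNA reads per 1000000) of 0.079 in double mutants and 3.77 in vsra-1 mutants (log2 fold change -5.53, adjusted p = 0.0013). Besides srw-85, 2 genes were called in opposite directions in the 2 backgrounds, imb-3, which encodes an importin beta, and F40D4.13, both higher without vsra-1 (0.73 and 1.81) and named after their values were seen. The call of imb-3 was lost without double mutant library 2 or 3 (adjusted p = 0.11 and 0.14).

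**Figure D5:**
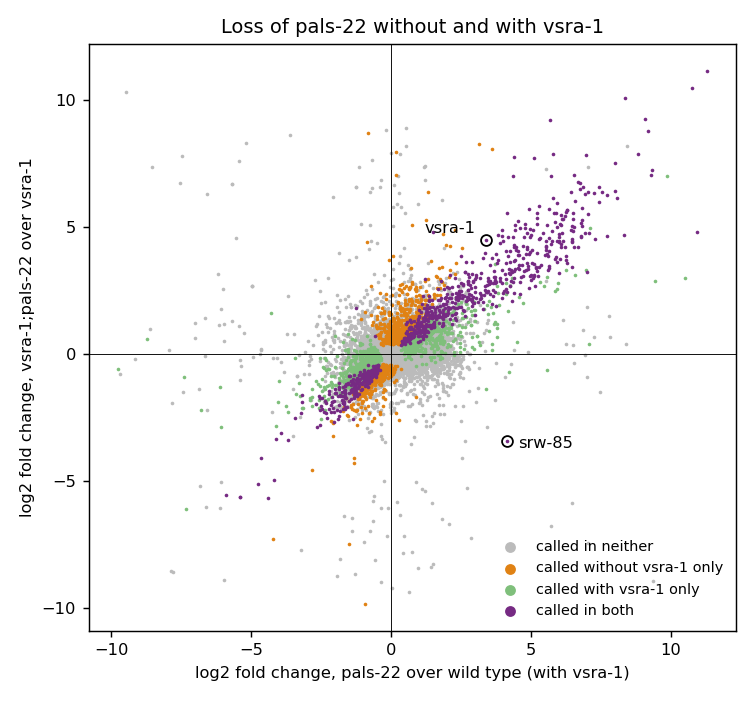
Log2 fold change of double mutants over vsra-1 mutants (vertical) against that of pals-22 over wild type (horizontal) for every gene tested, coloured by whether it was called in neither, in either or in both comparisons. Most genes called in both lie along the diagonal, 555 higher and 271 lower, and srw-85 stands alone at 4.15 and -3.43.

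The TagRFP transgene was expressed far above the genes described so far. It had 34189, 61173 and 38186 CPM in double mutants, against 87838, 86596, 33763 and 71777 CPM in vsra-1 mutants. The groups overlapped through vsra-1 library 3, which lay below every double mutant. The mean of the double mutants was 0.636 of that of vsra-1 mutants (two-sided exact permutation p = 0.17 over 35 arrangements), and in edgeR it was -0.65 on the log2 scale (adjusted p = 0.25, dropping to 0.049 once vsra-1 library 3 was omitted). Without that library the ratio was 0.542, with the smallest exact permutation p that 3 against 3 allows, 0.1. The endogenous rab-3 gene, which shares the promoter, had 275, 437 and 275 CPM in double mutants, against 489, 421, 188 and 372 CPM in vsra-1 mutants (log2 fold change -0.16), and was lowest in the same library. sRNA reads on TagRFP were at 275, 128 and 121 RPM in double mutants, against 125, 140, 124 and 145 RPM in vsra-1 mutants, so that double mutant library 1 alone was raised (log2 fold change 0.39, edgeR adjusted p = 0.30).

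sRNA counts per gene, from libraries of the same strains, were tested for 8042 genes, of which 974 (12.1%) were higher and 847 (10.5%) lower in double mutants. Among 7190 genes tested in both kinds of library the log2 fold changes of mRNA and sRNA had a Spearman rho of 0.11. Of 572 genes with higher mRNA, 177 also had higher sRNA (30.9%, against 11.7% of all 7190) and 37 had lower. Of 289 genes with lower mRNA, 28 had higher and 32 lower sRNA (9.69% and 11.1%, against 11.7% and 10.2%). The pals family had higher sRNA in 15 of 18 members tested and lower in 1, with pals-11, pals-37 and pals-28 at log2 fold changes of 5.92, 5.11 and 3.72. eol-1 and fbxa-75 rose by 4.01 and 6.57 in sRNA, but vsra-1, ekl-1 and rde-1 had sRNA log2 fold changes of 0.14, -0.11 and -0.01, without calls. The study's methods describe counting sense and antisense reads and analysing the antisense ones. Which strands the deposited counts hold was not checked here, and whether degraded mRNA contributes to them was not tested.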

How the data were processed

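Polyadenylated RNA was sequenced from a directional kit and quantified by the authors with kallisto, and what they deposited per gene are estimated counts. They behave as TPM (transcripts per 1000000) scaled to each library's total, since 84.78% are not whole and they lie in steps set by transcript length, and they were rounded before testing. Of 22014 entries, 172 are not in the annotation used. The deposited sRNA values are counts of reads of 15 to 30 bases per gene made with featureCounts on ce11. Tools named in the submitters' processing notes are cutadapt, FastQC, featureCounts and DESeq2. Groups came from the genotype labels.

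edgeR 4.0.16 (R 4.3.3) fitted a quasi-likelihood model to the 14 otIs356 mRNA libraries of 4 genotypes, so that all share an estimate of spread, with TMM factors, filterByExpr (minimum count 10, minimum total 15) and Benjamini-Hochberg adjustment over all genes tested. Calls are at an adjusted p under 0.1. sRNA genes over 5 RPM (reads per 1000000) were fitted in the same way. SE is the log2 fold change divided by the root of its F statistic. DESeq2 1.42.0, limma 3.58.1, other scalings and filters, and each library left out were alternatives. The scripts were tested on simulated data. TagRFP means were compared by exact permutation. Shared sequence is the share of a transcript's 31-base words found in transcripts of other genes. A bound against 0 uses 3 counts in the vsra-1 library where 3 counts weigh most.

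The members and the 31 gene lists were chosen with earlier results of these data known. Named genes are TagRFP, pals-22, pals-25, vsra-1 and rab-3, the 12 largest called changes in each direction among genes with libraries that do not overlap and a mean of at least 5 CPM in the higher group, genes called in the difference of effects, and members of the lists (any in lists of up to 11, otherwise the 4 largest called), the text giving only part of these, and 1 gene of the largest increases is not reported here. fbxa-62, bath-26, col-153, csr-1, sago-1, rpn-7, cyp-33C8, cyp-33C9, cyp-44A1, ugt-60, imb-3 and F40D4.13 were named after their values were seen. List symbols without a match were wago-2, wago-11, hsp-16.11, hsp-16.49, opt-2 and 11 C17H1 names, which the annotation lists under pals names. Promoter windows were read from the Ensembl WBcel235 genome and annotation. The replicate numbers of the titles did not pair the strains, so no block was used. How much the deletions remove from each transcript was not analysed here.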

Additional observations from a re-analysis of the deposited data

Results flagged for a closer look

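Within the 4 vsra-1 libraries, a single library lay apart from the other 3 for genes named above and for the pals family in sum, and chance flags about 1 in 20 groups. In most of them this was library 3, usually as the highest. Its CPM were 653 for the pals family in sum, 28.9 for pals-25, 2.59 for pals-30, 438 for skr-3, 28.97 for skr-4, 19.4 for cul-6, 48.1 for fbxa-158, 47.7 for fbxa-75, 153 for eol-1, 5.54 for F26F2.1, 7.83 for both entries of F26F2.2, 15.1 for F26F2.3, 280 for hsp-16.2, 4098 for hsp-16.1 and 1558 for F44E5.4. It was also highest for W03G1.8 (0.151) and ZC196.4 (0.686), both near 0 in every vsra-1 library, and lowest for the cytochrome P450 gene cyp-44A1 (5.20). Library 4 was lowest for another, cyp-33C2 (1.1102). Library 1 was highest for Y71H2AR.2 (0.217). IPR and heat shock genes thus moved together in library 3. srw-85 stood out because its change differed between the backgrounds, by -7.58 on the log2 scale (without vsra-1 minus with it, edgeR adjusted p = 7.1e-07, DESeq2 adjusted p = 5.2e-96).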

How the results depend on the processing

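The count of 1825 genes called in double mutants against vsra-1 mutants was 2881 with DESeq2 (1354 higher, 1527 lower, 1810 of them shared), 3407 with the replicate block (1800 higher, 1607 lower), 734 from a fit of the libraries of the compared strains alone and 972 at an adjusted p under 0.05. Leaving out each library gave 806 to 3861 calls, with 1090, 1072 and 859 without double mutant library 1, 2 or 3, 905 and 806 without vsra-1 library 1 or 2, and 3861 without vsra-1 library 3. Without both vsra-1 libraries 3 and 4, a choice made after seeing the data, it was 5379. Library totals alone changed the split to 2255 higher and 330 lower, RLE factors to 986 and 855. For pals-22 animals against wild type the 1820 calls became 3584 with DESeq2, 5189 with the block, 3667 with those strains alone, 817 at 0.05, 4545 without vsra-1 libraries 3 and 4 (which share the estimate of spread) and 628 to 5384 with a library left out. The difference of the effects gave 56 calls with DESeq2, 2 with the block (F40D4.13 added) and 1 to 2 with a library left out (ebp-3 added without double mutant library 2, WBGene00219279 without vsra-1 library 4). sRNA calls ranged over 1015 to 1949 of the main 1821 with a library left out, lowest without double mutant library 1. The numbers in the titles did not pair the strains (correlations of deviations -0.053, 0.487 and 0.234, and 0 of 3 double mutant libraries closest to their own number), so the block is no test of the effect. Of the called genes among those the naming rule and the text took up, 54 kept the call in every alternative and 50 lost it in at least 1. Direction changed for rab-3 (0.17 with library totals, -0.42 to 0.0067 with a library left out), F44E5.4 (-0.021 to 2.09), col-81 (-1.48 to 5.85) and col-133 (-1.45 to 5.65) with a library left out, and unc-89 (-0.13 with the length trend removed). Where no library is named, the cause was not tested. Depth was least in double mutant library 1, with a total of 5479218, which limits genes near 0 CPM.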
